A study of Rattus norvegicus with 13 samples.

Results

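The genes described here are 33 interferon-induced genes, taken as the rows of the authors' deposited gene table whose symbol is on a named list. Of the 33 symbols, 30 had a row among the 14855 genes of the table. Oas1b and Oas2, of the oligoadenylate synthetase family, and Sp100, a nuclear body protein, had no row and are dropped. The authors' filter on low counts is not given. The list was chosen from earlier results of this same comparison, in which its log2 fold changes stood on the higher side, so those fold changes are a description here and no test of the list is given. By role the 30 are 4 sensors of foreign or misplaced nucleic acid, 4 signal transducers or regulators, 20 effectors and 2 chemokines.

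The rats were males of the strain SAS Sprague-Dawley in adolescence, and RNA was sequenced from dissected medial preoptic area (MPOA), a hypothalamic region. In both groups the rats had been injected on postnatal day 21, on each side and with 0.5 uL per side, with an adeno-associated virus of serotype 5 that expressed GFP and a short hairpin RNA (shRNA) from a U6 promoter. The hairpin was directed against Oprm1, the mu opioid receptor gene, in 5 samples and was a scrambled sequence in 7, and 1 further Oprm1 shRNA sample was left out by its label as an outlier. Both groups therefore carried virus, GFP and a hairpin, and no uninjected group is labelled, so the comparison says nothing about the members' levels in uninjected tissue. Whether every sample came from its own rat, and what share of the dissected cells took up the virus, is not stated by the labels.

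Type I interferons are secreted when cells detect viral or misplaced nucleic acid. The type I receptor acts through the kinases Jak1 and Tyk2, and Stat2 and Irf9 are parts of the complex ISGF3, which binds a promoter sequence called the interferon-stimulated response element (ISRE). Interferon gamma acts mainly at another promoter sequence, the gamma-activated site (GAS). In brain, interferon-induced genes are known from microglia, and also from astrocytes, endothelium and neurons.

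The sequences that ISGF3 and related factors read are shown first, since most members with a promoter window have one of them. The rule did not use these sequences, but it names genes known as interferon-induced. A share above that of all genes is therefore no independent result. Windows from 250 bases before to 50 bases after the annotated gene start were taken from RefSeq (build GRCr8, not the authors' build) and were found by symbol for 23 of the 33 members. Ifit1bl and Sp100 have 2 windows each, and a gene counts as holding a motif where any of its windows does. They were searched on both strands for the ISRE core GAAANNGAAA and the GAS core TTCNNNGAA, with N any base and overlapping matches kept. The windows of 9 members from different roles are printed below, 5′ to 3′ on the strand that carries the core, with the core and any overlapping core in capitals and up to 15 bases on each side.
Ifih1, chr3:67684003-67684042, minus strand: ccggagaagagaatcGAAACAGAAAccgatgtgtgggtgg
Irf7, chr1:205800068-205800107, plus strand: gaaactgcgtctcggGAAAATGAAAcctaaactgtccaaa
Ifit3, chr1:241527267-241527306, minus strand: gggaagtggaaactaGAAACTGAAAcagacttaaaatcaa
Rsad2, chr6:48788243-48788282, plus strand: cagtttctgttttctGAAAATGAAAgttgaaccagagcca
Gbp2, chr2:234005681-234005720, minus strand: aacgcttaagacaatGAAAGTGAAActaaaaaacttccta
Parp14, chr11:78408043-78408082, plus strand: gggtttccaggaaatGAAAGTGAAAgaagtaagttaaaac
Oas1a, chr12:41330410-41330455, plus strand: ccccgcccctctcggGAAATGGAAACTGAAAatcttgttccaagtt
Oas1b, chr12:41395881-41395926, minus strand: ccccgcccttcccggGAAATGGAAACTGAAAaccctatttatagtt
Cxcl10, chr14:15988816-15988847, plus strand: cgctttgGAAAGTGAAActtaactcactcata

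The ISRE core was present in 15 of the 23 members with a window, or 65.2%, against 4.12% of the 27457 gene symbols with a window. The GAS core was present in 7 of the 23, or 30.4%, against 9.39% of all. Together 18 of the 23 held at least 1 of the cores, and Parp14, Oas1a, Oas1b and Bst2 held both. Of the 20 ISRE matches in the members, 18 started within 200 bases before the gene start. The match of Cxcl10 lay farthest away, 243 bases before the start, and 1 of the 2 matches of Ifi44 lay 26 bases after it. The RefSeq windows named Oas1a and Oas1b carry the same run of overlapping cores. RefSeq lists Oas1g as a synonym of Oas1a, while the deposited table has a separate row for each, so the window may belong to either row. A match is a run of letters and not a measured binding site, and the absence of these letters from the windows of Stat2, Mx1, Herc6, Oasl and Sp100 says nothing about what regulates them.

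**Figure D1:**
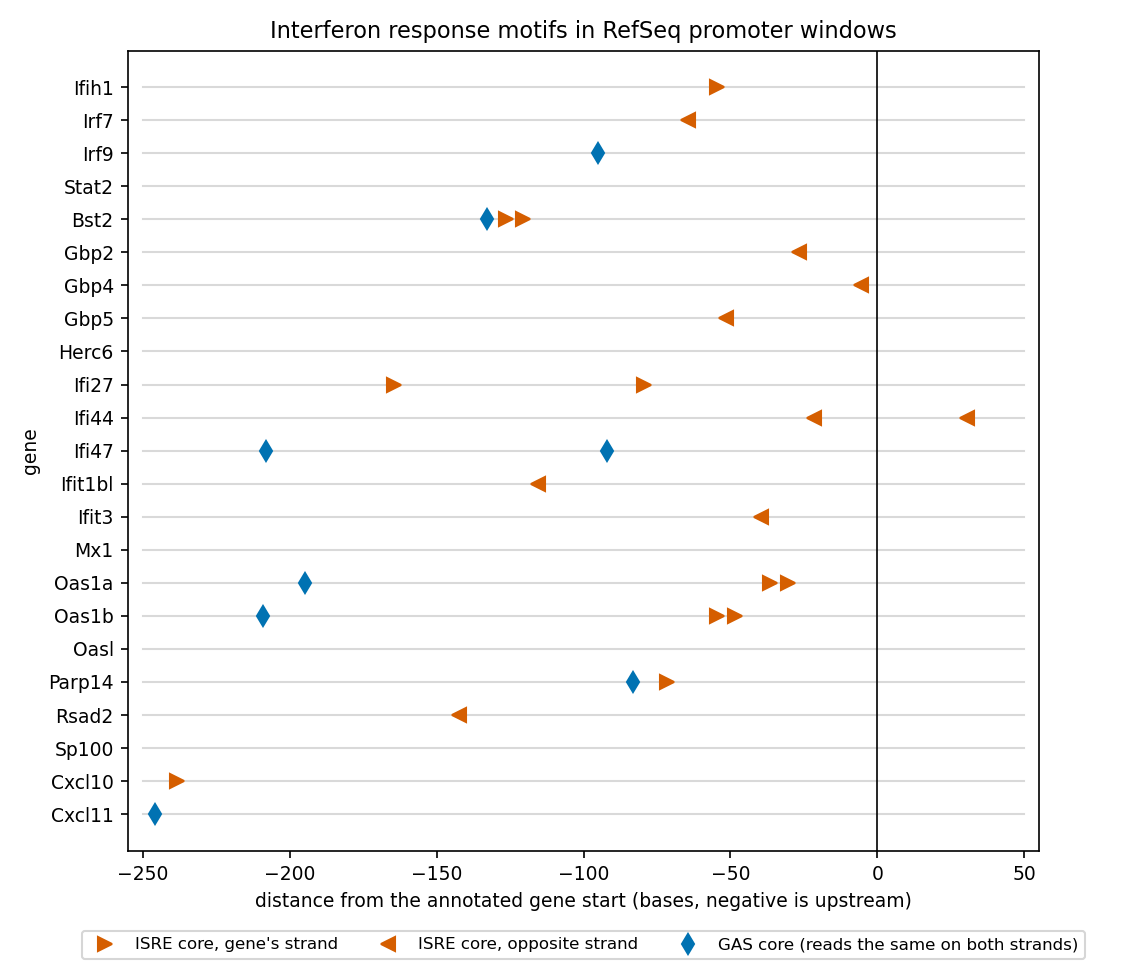
Positions of the ISRE core (orange arrows, pointing along the strand that carries it) and the GAS core (blue diamonds) in the promoter windows of 23 interferon-induced genes. The x axis is the distance in bases from the annotated gene start, and most ISRE matches lie in the last 200 bases before it.

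The authors' deposited table gives for each gene a log2 fold change (positive where Oprm1 shRNA was higher), an average CPM (reads of a gene relative to all reads of its library), and a likelihood ratio statistic with its p. From these a standard error was computed as the absolute log2 fold change over the square root of the statistic, and an approximate 95% interval of the fold follows. CPM is not divided by transcript length, so it orders the members by the reads behind them and not by transcript level. No value of a single sample was analysed here, and whether the groups overlap cannot be stated. In bulk tissue, more cells that express a gene and more RNA per cell cannot be told apart.

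Tissue and target were looked at first. The 7 preoptic and inhibitory neuron genes looked up, a list chosen after the table had been seen, all had a row, from Calcr at 360.2 CPM and Slc32a1 at 205 CPM down to Hmx3 at 1.03 CPM by the authors' deposited table. Oprm1 itself had a fold of 0.670 with an interval from 0.0715 to 6.27 (adjusted p = 0.9997 by edgeR, per the authors' deposited table), so its level is no check of the labels.

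No member passed the authors' adjusted p of 0.05, a count of 0 of 30, where 0.0202% of all 14855 genes passed in the authors' deposited edgeR fit. The adjusted p was 0.9997 for 29 members and 0.846 for Ifit1bl by the authors' deposited table. With an unadjusted p under 0.05 the count was 3 of 30 members, against 4.39% of all genes. Of these, 1 was higher (1.49% of all genes) and 2 were lower (2.9% of all genes) by the authors' deposited table. The 2 lower members, Ifit1bl and Cxcl11, lie under log2 CPM 2. There 338 of 2776 genes had an unadjusted p under 0.05 by edgeR, 272 of them lower. With 3 members, and since the list was chosen on this comparison, nothing is read from these shares.

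By sign, 22 of the 30 members were higher with Oprm1 shRNA and 8 lower by the authors' deposited table, where 48.4% of all genes were higher. The members' median log2 fold change was 0.68 and that of all genes −0.02 by the authors' deposited table. Effectors had 16 of 20 higher and a median of 0.80 there. Sensors had 3 of 4 higher and a median of 0.36, and transducers and regulators had 2 of 4 higher and a median of 0.39, by the authors' deposited table. The 2 chemokines had opposite signs. The differences between the roles were not tested.

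**Figure D2:**
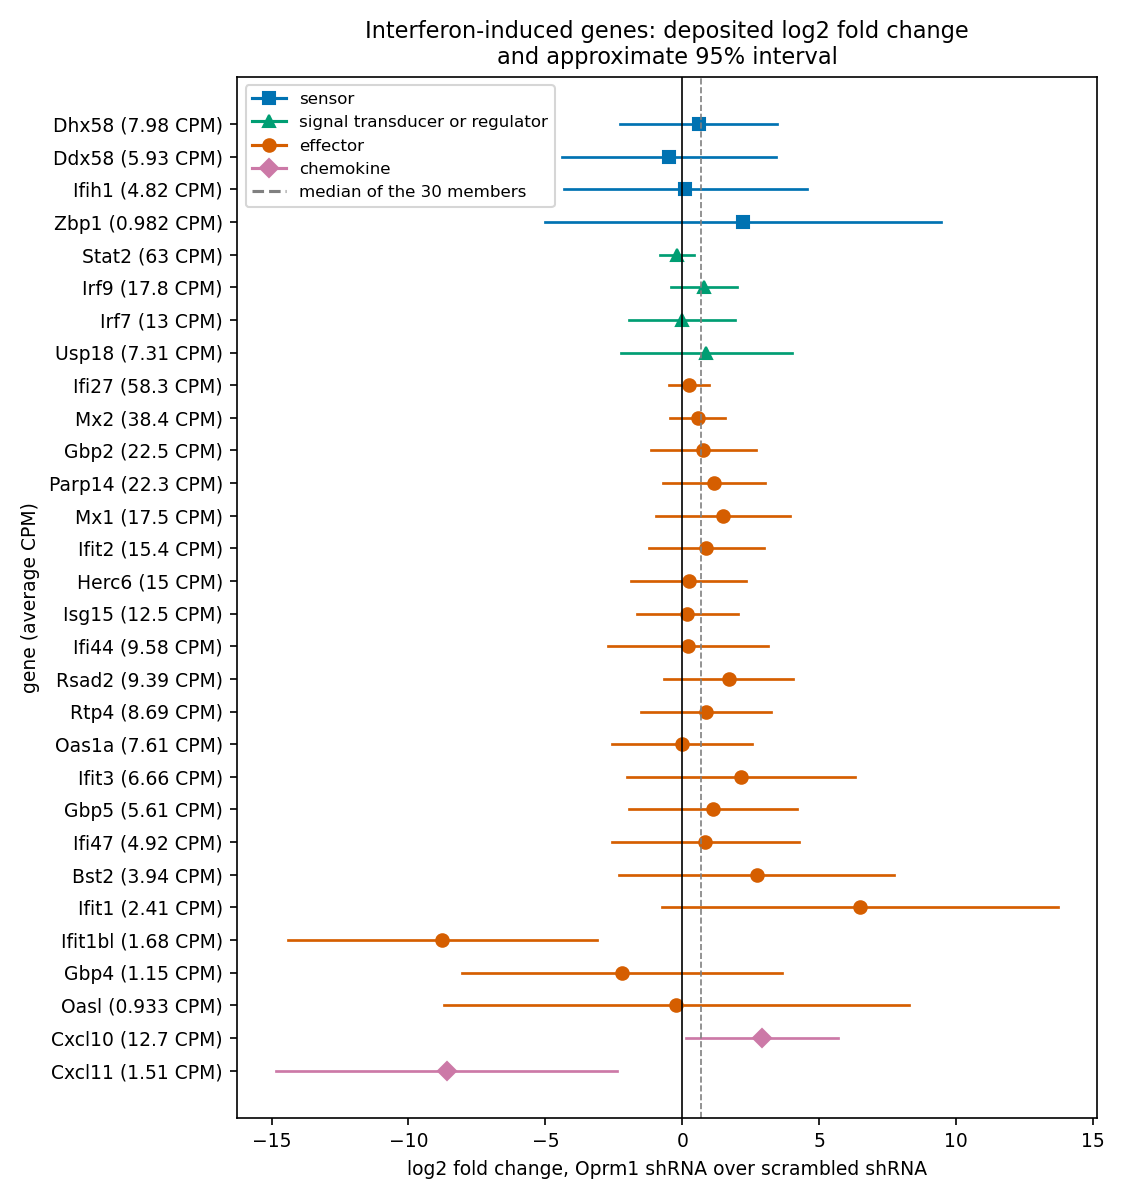
Deposited log2 fold change (points) and approximate 95% interval (lines) of the 30 members, coloured by role and ordered within each role by average CPM, which stands beside each symbol. Most points lie right of 0, and 27 of the 30 lines cross it. The others are Cxcl10 and, with fitted values that other genes of like CPM share, Ifit1bl and Cxcl11.

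The members differed widely in the reads behind them and in the width of their intervals. Members ranged from 0.933 CPM (Oasl) to 63.0 CPM (Stat2), with a median of 8.33 CPM against 22.2 CPM for all genes by the authors' deposited table. The median standard error of the members was 1.44 on the log2 scale, so that a typical member would need a 7.07-fold difference for its interval to leave out no change. For 19 of the 30 the interval reached both below a fold of 0.5 and above a fold of 2.

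**Figure D3:**
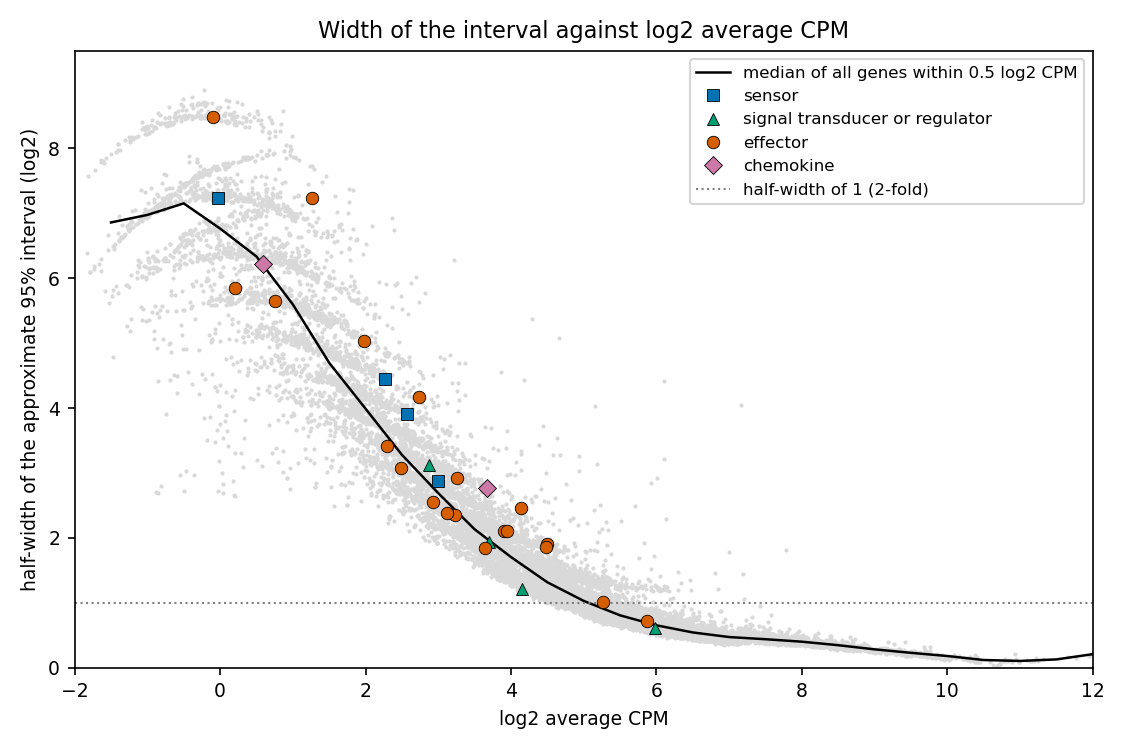
Distance from the log2 fold change to either end of its approximate 95% interval (y axis, log2) against log2 average CPM (x axis), for all genes (grey), their running median (line) and the 30 members (coloured by role). Stat2 and Ifi27 lie under the 2-fold line, and the other members lie above it.

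Of the 4 signal transducers and regulators, Stat2 was measured most precisely and Irf9 next. Stat2, the subunit of ISGF3 that brings its activation domain, showed a log2 fold change of −0.18 at 63.0 CPM by the authors' deposited table. Its fold of 0.881 had an interval from 0.575 to 1.35, the narrowest among the members. Irf9, which gives ISGF3 its DNA binding, showed a log2 fold change of 0.80 at 17.8 CPM by the authors' deposited table, a fold of 1.74 with an interval from 0.749 to 4.04. Irf7, the factor that amplifies type I interferon production, had −0.02 at 13.0 CPM there (fold 0.989, interval 0.259 to 3.78). Usp18, a protease that removes ISG15 from proteins and damps receptor signalling, had 0.88 at 7.31 CPM by the authors' deposited table, with an interval from 0.213-fold to 16.0-fold.

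Irf8 and Irf1, which are not on the list, had the smallest p among the other STAT and IRF factors counted. Irf8, a factor of microglia and other myeloid cells, had a fold of 2.80 (interval 1.32 to 5.95) at 26.2 CPM by the authors' deposited table, with an unadjusted p of 0.00749 and an adjusted p of 0.9997 by edgeR. Irf1, a factor that interferon gamma induces, had a fold of 3.05 (interval 0.651 to 14.3) at 20.8 CPM by the authors' deposited table, with an unadjusted p of 0.157 by edgeR. Neither passed.

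Sensors were measured poorly. Ifih1 (MDA5), a helicase that detects long double-stranded RNA, showed a log2 fold change of 0.11 at 4.82 CPM by the authors' deposited table. Ddx58 (RIG-I), which detects short double-stranded RNA with a phosphorylated end, had −0.47 at 5.93 CPM there. Dhx58 (LGP2), a helicase that modulates both, had 0.60 at 7.98 CPM by the authors' deposited table. The intervals of these 3 helicases reached from 0.207-fold or lower to 10.8-fold or higher. Zbp1, a sensor of Z-form nucleic acid that can trigger cell death, had 2.22 at 0.982 CPM by the authors' deposited table, where an interval from 0.0309-fold to 703-fold leaves the direction unknown.

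Among the effectors, the dynamin-like Mx GTPases, which block viral ribonucleoproteins, were both higher. Mx2 showed a log2 fold change of 0.57 at 38.4 CPM by the authors' deposited table, a fold of 1.49 with an interval from 0.737 to 2.99. Mx1 had 1.49 at 17.5 CPM by the authors' deposited table, a fold of 2.80 with an interval from 0.511 to 15.3. Neither interval leaves out no change.

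The IFIT proteins bind foreign RNA and restrain its translation, and their 4 genes lie next to each other with no other protein-coding gene between them in the GRCr8 annotation. Their log2 fold changes ran from 6.49 for Ifit1 through 2.16 for Ifit3 and 0.87 for Ifit2 to −8.77 for Ifit1bl by the authors' deposited table. Only Ifit2, at 15.4 CPM, has more than 7 CPM, and its interval reached from 0.426-fold to 7.85-fold. Ifit1 at 2.41 CPM had an unadjusted p of 0.0787 from the authors' deposited edgeR fit, and its interval reached down to 0.597-fold, with no useful upper end. Ifit1bl at 1.68 CPM had the smallest unadjusted p of the members, 0.00234, in the authors' deposited edgeR fit.

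The value of Ifit1bl is shared by other genes of like abundance. Of the 189 other genes within 0.1 log2 CPM of it, 17 had a fitted value below −5, and 15 of the 189 lay within 0.25 of its own by the authors' deposited table. Reads in each group were not analysed here, so no fold is given for such a value. Across the table, 483 genes had an absolute log2 fold change over 5, of which 97.1% were under 4 CPM, or log2 CPM 2. RSEM estimates how reads split among similar transcripts, and reads may be divided between Ifit1 and Ifit1bl in a way that the table does not show.

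Cxcl10 and Cxcl11, neighbouring genes whose products attract T cells through the receptor Cxcr3, had values of opposite sign. Cxcl10 showed a log2 fold change of 2.91 at 12.7 CPM by the authors' deposited table, a fold of 7.54 with an interval from 1.11 to 51.4. Its unadjusted p was 0.0392 in the authors' deposited edgeR fit, and it was the sole member whose interval lay above no change. Cxcl11 had a fitted −8.60 at 1.51 CPM by the authors' deposited table, again a value shared by others, with 21 of 181 genes within 0.1 log2 CPM lying within 0.25 of it. Cxcl9, the neighbouring gene of the same chemokine group and no member, had 1.12 at 2.12 CPM by the authors' deposited table.

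**Figure D4:**
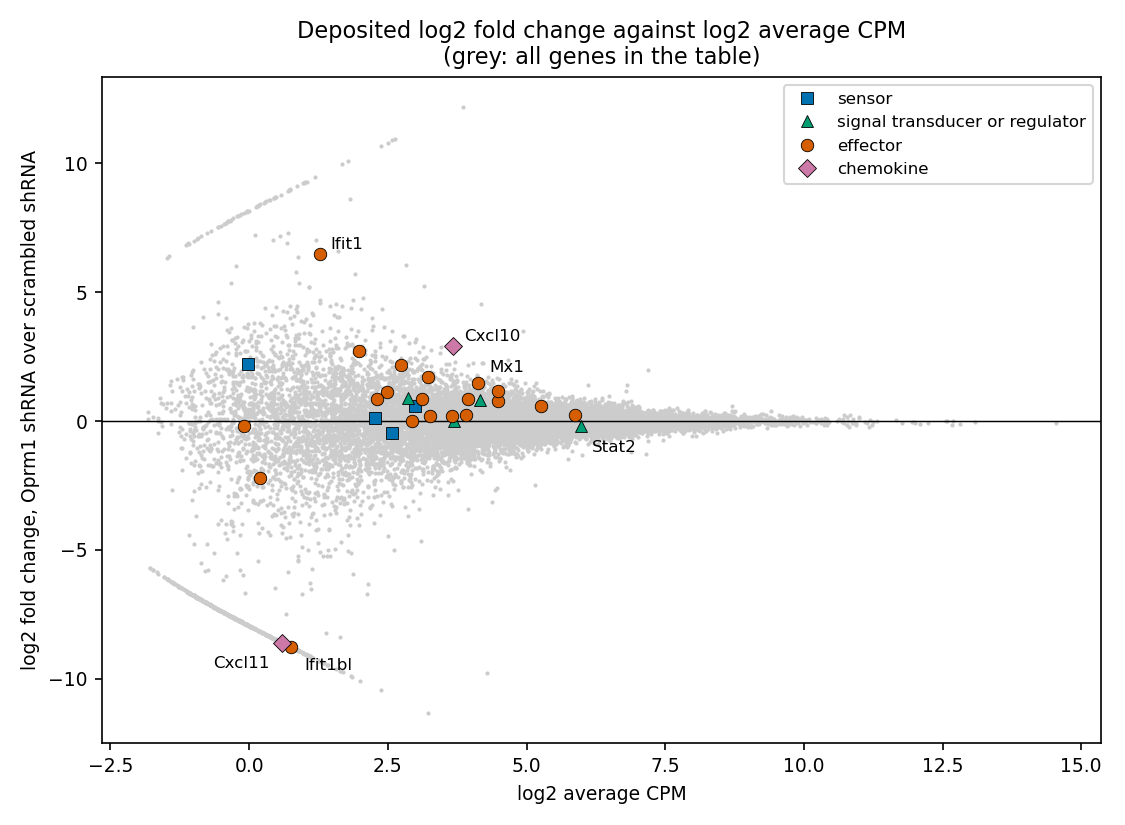
Log2 fold change (y axis) against log2 average CPM (x axis) for all 14855 genes (grey) and the 30 members (coloured by role). Ifit1bl and Cxcl11 sit on the lower arc, on which genes of the same abundance share nearly the same fitted value, and Cxcl10 lies at the upper edge of the cloud.

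The GTPases of the guanylate-binding family and Ifi47, an immunity-related GTPase, are induced chiefly by interferon gamma in mouse. Gbp2 showed a log2 fold change of 0.77 at 22.5 CPM by the authors' deposited table, a fold of 1.70 with an interval from 0.453 to 6.40. Gbp5 had 1.12, Ifi47 0.84 and Gbp4 −2.20, each under 6 CPM by the authors' deposited table. Gbp4 at 1.15 CPM lies between Gbp5 and Gbp2 in the annotation, and its interval from 0.00379-fold to 12.5-fold gives it no direction.

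Rsad2 (viperin), an enzyme that makes a chain-terminating nucleotide, showed a log2 fold change of 1.71 at 9.39 CPM by the authors' deposited table. Its fold of 3.27 had an interval from 0.638 to 16.7, at an unadjusted p of 0.155 from the authors' deposited edgeR fit. Bst2 (tetherin), which holds budding virions at the cell surface, had 2.72 at 3.94 CPM by the authors' deposited table, with an interval from 0.201-fold to 216-fold. Parp14, an ADP-ribosyltransferase, had 1.17 at 22.3 CPM by the authors' deposited table, a fold of 2.25 with an interval from 0.619 to 8.21.

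Of the remaining effectors, Ifi27 had a narrow interval and the others had wide ones. Ifi27, a small mitochondrial protein, showed a log2 fold change of 0.25 at 58.3 CPM by the authors' deposited table, and its fold of 1.19 (0.720 to 1.96) lies below 2-fold throughout. The ubiquitin-like modifier Isg15 had 0.19 at 12.5 CPM by the authors' deposited table (0.318-fold to 4.08-fold). Herc6, which attaches Isg15 to proteins in mouse, had 0.24 at 14.98 CPM there (0.274-fold to 5.09-fold). Rtp4, a chaperone of G protein-coupled receptors, opioid receptors among them, had 0.87 at 8.69 CPM by the authors' deposited table (0.352-fold to 9.49-fold). Ifi44 had 0.21 at 9.58 CPM by the authors' deposited table (0.152-fold to 8.78-fold).

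Active enzymes of the oligoadenylate synthetase family lead to activation of the ribonuclease RNase L. In this family Oas1a had −0.01 at 7.61 CPM and Oasl −0.21 at 0.933 CPM by the authors' deposited table. The Oas1 genes are close copies. Oas1i and Oas1g, which are not members, had the same log2 fold change of −0.33 and the same 2.38 CPM by the authors' deposited table; the first differed by 1.07e-07. Oas1k, also no member, had 2.69 at 8.31 CPM by the authors' deposited table (unadjusted p = 0.0902 by edgeR). How reads were divided within this family, and with what effect on Oas1a, was not tested.

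Set beside genes of like abundance, those within 0.5 log2 CPM, 24 of the 30 members had a log2 fold change above the median of their neighbours by the authors' deposited table. In the top 10% of such neighbours lay 11 members, namely Ifit1, Ifit2, Ifit3, Mx1, Mx2, Rsad2, Bst2, Gbp2, Parp14, Irf9 and Cxcl10, and in the bottom 10% lay Ifit1bl and Cxcl11. Of the 7 members with at least 16 CPM, 6 were higher, with a median log2 fold change of 0.77 by the authors' deposited table, where 49.2% of all genes at that abundance were higher. Of the 7 members under 4 CPM, 3 were higher and the median was −0.21 by the authors' deposited table. Of all genes under 4 CPM, 44.8% were higher and the median was −0.22. These counts describe a list chosen on the same values.

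Members with and without the ISRE core were set side by side, as a description of a list chosen on these same fold changes. Members with a row but no window fall in neither group, and the difference between the groups was not tested. The 14 members with the core and a row had 10 higher and a median log2 fold change of 0.51, and the 7 with a window but no core had 4 higher and a median of 0.24, by the authors' deposited table. Outside the list, 310 genes with the core had 50.6% higher and a median of 0.02, against 48.1% and −0.02 for 10353 genes without it by the authors' deposited table. Their share at an unadjusted p under 0.05 was 3.23% with the core and 4.02% without it, and 0 and 2 passed the adjusted p of the authors' deposited edgeR fit.

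Other genes of the pathway were counted in 5 lists of 82 symbols that share none with the members. These lists too were chosen with earlier results of these data known, so their counts are a description. They had 65 rows, of which 43 were higher and 22 lower by the authors' deposited table, where 48.4% of all genes were higher. Of the 65, 0 passed the adjusted p in the authors' deposited edgeR fit, against 0.0202% of all genes. At an unadjusted p under 0.05 by edgeR there were 2 of the 65, against 4.39% of all genes. These were Irf8 and Ifnar1, both higher, and nothing is read from that count. Ifnar1, a chain of the type I receptor, had a fold of 1.54 (interval 1.03 to 2.31) at 101 CPM by the authors' deposited table, with an unadjusted p of 0.0355 by edgeR. Of the receptors and kinases 5 of 9 were higher with a median of 0.02 by the authors' deposited table. Jak2, a kinase of the gamma receptor, had −0.52 there (0.432-fold to 1.13-fold). The other STAT and IRF factors had 4 of 6 higher and a median of 0.72 by the authors' deposited table.

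The upstream sensors and adaptors had 9 of 11 higher with a median of 0.59, and the genes of smallest p were Mavs, the adaptor of the RNA helicases, at 0.52, and the endosomal RNA receptor Tlr7 at 1.62 by the authors' deposited table. The feedback inhibitors had 2 of 5 higher with a median of −0.02, led by the phosphatase gene Ptpn6 at 0.78 and Usp25 at −0.23 by the authors' deposited table. Across all genes 48.4% were higher, and these lists were chosen with earlier results of these data known. A list of 34 further interferon-induced genes had 23 higher and 11 lower with a median of 0.40 by the authors' deposited table. Its genes of smallest p were Ifi44l, at a fitted −6.86 and 0.522 CPM, and Oas1k. Adar, an RNA-editing enzyme, had −0.001 at 210.3 CPM, and Eif2ak2, the kinase PKR, had 0.43 at 52.9 CPM by the authors' deposited table, both chosen after their values were seen.

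**Figure D5:**
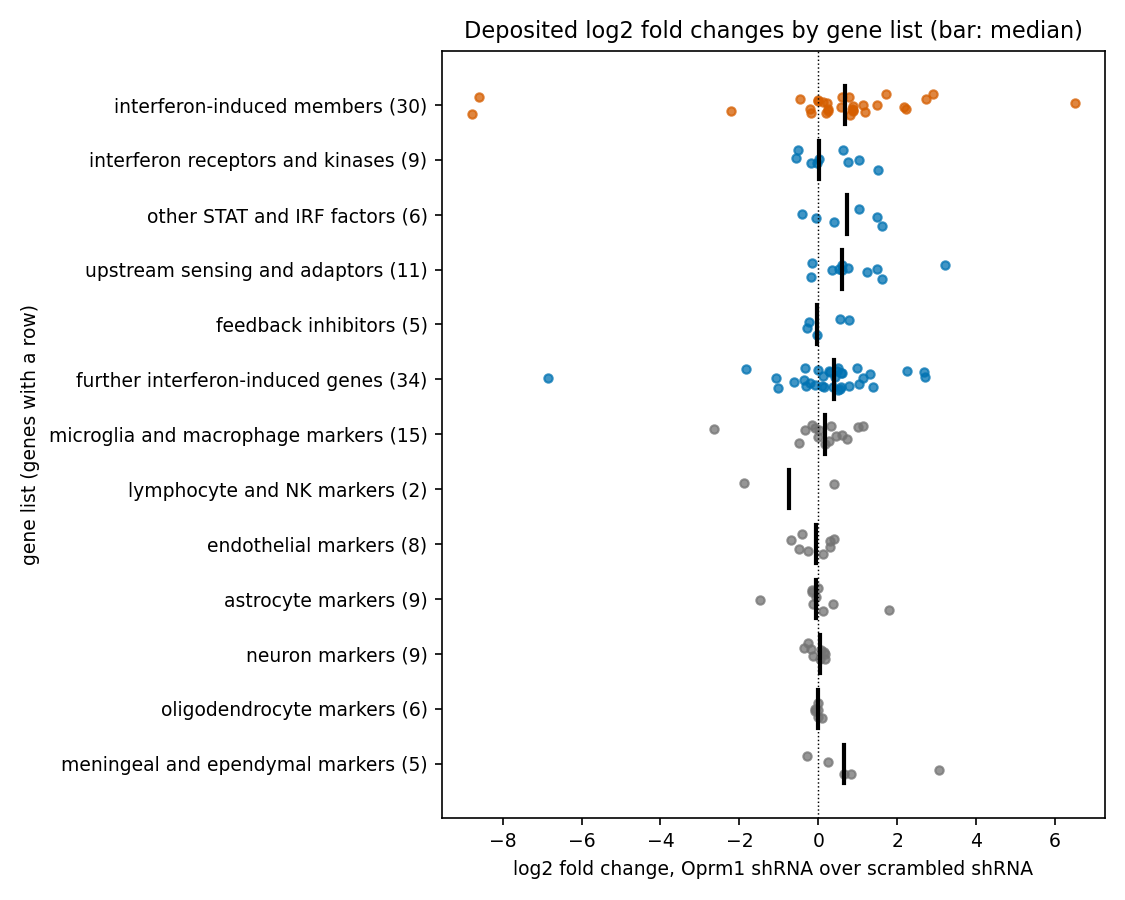
Log2 fold changes of the 30 members (orange), the 5 pathway lists (blue) and the 7 lists of cell type markers (grey), with the median as a bar and the number of genes with a row beside each name. The medians of neuron, oligodendrocyte, astrocyte and endothelial markers lie near 0. Those of the other marker lists are 0.17 (microglia and macrophage), −0.745 (lymphocyte and NK) and 0.66 (meningeal and ependymal).

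Markers of the cells known to express these genes were read beside them. Microglia and macrophage markers had 9 of 15 higher, a median of 0.17 on the log2 scale and a summed average of 405 CPM by the authors' deposited table, with C1qa at 0.31 and Trem2 at −2.64 the genes of smallest p. Endothelial markers had 4 of 8 higher with a median of −0.07, led by Vwf at −0.50 and Slco1a4 at −0.41 by the authors' deposited table. Astrocyte markers had 3 of 9 higher with a median of −0.05, led by Slc1a2 at −1.47 and Gfap at 0.37 by the authors' deposited table. Neuron markers had 5 of 9 higher with a median of 0.03, led by Map2 at −0.15 and Syt1 at −0.18 by the authors' deposited table. By edgeR the unadjusted p was 0.0275 for Slc1a2 and 0.00635 for Map2.

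Oligodendrocyte markers had 1 of 6 higher with a median of −0.02, led by Mobp at 0.09 and Mag at −0.08 by the authors' deposited table. Of 12 lymphocyte and natural killer markers, Cd4 and Lck had a row, at −1.89 and 0.40 and a summed average of 13.7 CPM by the authors' deposited table, and the other 10 had none. Meningeal and ependymal markers had 4 of 5 higher with a median of 0.66 and a sum of 65.2 CPM, led by Col1a2 at 3.07 and Col1a1 at 0.66 by the authors' deposited table. Col1a2 had an unadjusted p of 0.0472 by edgeR. No gene counted in the marker lists passed the adjusted p. The levels of these markers in each group were not analysed here, and their part in the members' values was not tested.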

How the data were processed

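Per the submitters' processing notes the tools were bcl2fastq 2.20, STAR 2.5.3a, RSEM and edgeR 3.28.0, with the rat build Rnor_6.0; the sources used here do not give annotation release, low-count filter, dispersion setting or strand. The data were the authors' deposited table of 1 comparison, 5 Oprm1 shRNA against 7 scrambled samples, with values as deposited: log2 fold changes and log2 average CPM, the likelihood ratio as a score, and unadjusted and Benjamini-Hochberg adjusted p-values. The p-values equalled the chi-square tail of the deposited score with 1 degree of freedom for all 14855 genes, and the adjustment implies 14859 tests.

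The count test that had been planned needs values per sample and was not run, and the deposited statistics were used as given. Depth per sample is unknown. The standard error implied by the score treats it as a squared normal value and is unreliable where few libraries hold reads. The p-values set the group difference against the fitted spread between these samples only, which may be technical. The members, role groups and lists were chosen with earlier results of these data known. Members with at least 16 CPM (log2 CPM 4) and the 5 of smallest p are given in full, the others more briefly, and the 2 genes of smallest p name each list; genes outside this rule are named where a result turns on them. The counts leave out 2 genes of the lists, which are not reported here. Members matched RefSeq by symbol (32 of 33; Ddx58 by synonym). The table of proteins foreseen for identities was not used here. Scripts ran in Python 3.11.15 with numpy 2.4.6, pandas 2.3.3 and scipy 1.17.1, and were tested on simulated data.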

Additional observations from a re-analysis of the deposited data

How the results depend on the processing

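No per-sample values were analysed here, so leaving out replicates and other count tests were not run. No paired analysis was possible because the only table holds 1 fitted comparison and no column for a sample. The count of members called was 0 under 5 of the 6 other thresholds and 3 at an unadjusted p under 0.05. Of those 5, the adjusted p under 0.01 and the added minimum of 1.5-fold could only give 0 again. The share of members higher went from 73.3% to between 75% and 85.7% under the alternatives. The members' median log2 fold change of 0.68 stayed between 0.68 and 0.77 under filters and centring, and the mean weighted by precision was 0.34, in which Stat2 and Ifi27 have the largest weights. With the same weights it was 0.040 for transducers and regulators and 0.53 for effectors. The sensors' median of 0.36 was 0.11 at log2 CPM of at least 0 or 2, which drops Zbp1. The chemokines' median of −2.84 turned to 2.91 at log2 CPM of at least 2 or without absolute values over 5, which drops Cxcl11, and their weighted mean was 1.01. Of 45 alternative values 36 kept direction and stayed within 1.5 times, or within the share's counting interval. Several of the 36 could not differ, because the threshold was stricter or the filter dropped no member of the role. The tally is therefore no measure of robustness. At log2 CPM of at least 4 no sensor or chemokine was left. Depth per sample is unknown; the smallest fold detectable at each member's implied error, which holds depth, the spread between samples and their number together, had a median of 7.07.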
